A study of Rattus norvegicus with 4 samples.

Results

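The 9 genes described here are induced in many cell types by interferons, and were taken by name: *Gbp2*, *Ifitm1*, *Ifi27l2b*, *Irf1*, *Irf7*, *Mx1*, *Mx2*, *Isg15* and *Oas1a*. A gene counted as measured when the platform annotation gave a probe set (several short probes read together for the same RNA) that symbol alone. All 9 were measured, out of 14217 genes with such a probe set. The study itself put *Gbp2* and *Ifitm1* among the most increased genes of these same arrays, and their direction is therefore no independent evidence. RNA came from lens capsules carrying lens epithelial cells (LECs) of female albino SD rats after extracapsular lens extraction (ECLE), the operation that empties the capsule of its lens content. There were 4 arrays, with 1 at day 0 (rats 7 weeks old), 2 at 1 W (8 weeks old, labeled as separate biological replicates, here replicates 1 and 2) and 1 at 2 W (9 weeks old). The day 0 capsules were taken once surgery was complete, so every group had ECLE and no unoperated eye is among the arrays. For each time point the methods give a larger number of samples for the microarrays than the arrays listed here, and whether capsules or animals were pooled on an array is not stated. The n of 2 at 1 W therefore counts arrays, and each of the single arrays may hold 1 or several samples.

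Interferons are secreted proteins that cells release on infection or injury. Type I interferons and interferon gamma bind separate receptors, whose JAK kinases phosphorylate STAT proteins. STAT complexes then enter the nucleus and bind the interferon-stimulated response element (ISRE) or the gamma-activated site (GAS) of target genes. The products include transcription factors of the IRF family, which carry the response further, and effectors that block virus entry, replication or protein synthesis. In the eye, macrophages and other leukocytes that enter wounded tissue also express many of these genes.

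The promoter stretches that hold these elements are shown because they are the sequence feature known for genes of this kind. RefSeq promoters of the rat assembly GRCr8, from 250 bases before the transcription start to 50 after it, were matched for 5 of the 9 genes (*Gbp2*, *Irf1*, *Irf7*, *Mx1* and *Oas1a*). The ISRE core searched was 2 GAAA repeats set 2 bases apart, on either strand, and 3 of the 5 promoters held it, against 3.92% of the 33469 promoters in the table. The GAS searched was TTCNNNGAA, which reads the same on both strands, and 2 of the 5 held it, against 8.87% of all promoters. In each line the capitals mark the match, the *Oas1a* line holding 2 overlapping ISRE cores.
*Gbp2*, ISRE core, chr2:234005666-234005726, plus strand: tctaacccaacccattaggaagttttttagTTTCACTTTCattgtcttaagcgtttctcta
*Irf7*, ISRE core, chr1:205800053-205800122, minus strand: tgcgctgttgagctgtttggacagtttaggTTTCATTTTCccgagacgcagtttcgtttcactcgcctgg
*Oas1a*, ISRE core, chr12:41330395-41330465, plus strand: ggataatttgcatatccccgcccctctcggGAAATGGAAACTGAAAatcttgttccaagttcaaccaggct
*Irf1*, GAS, chr10:38417763-38417831, plus strand: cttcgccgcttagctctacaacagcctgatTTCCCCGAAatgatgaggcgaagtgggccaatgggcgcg
The ISRE core began 31 bases before the start of *Gbp2*, 69 before that of *Irf7* and 41 before that of *Oas1a*. The GAS of *Irf1* began 142 bases before its start. *Oas1a* also held a GAS, 199 bases before its start. In the *Mx1* window neither set of letters was found. A match is a description of the letters, and binding was not measured.

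The median deposited intensity was 57.0 on the day 0 array, 45.2 and 46.7 on those of 1 W and 31.9 on that of 2 W, and ratios to day 0 were therefore taken after division by the mean intensity of the array. Levels below are deposited intensities on a linear scale, and ratios are of the scaled values. At 1 W the ratio is the mean on the log2 scale of both replicates. After scaling, the median log2 ratio of the 18625 probe sets tested was -0.08 at 1 W and -0.26 at 2 W. limma, a linear model fitted across all probe sets, was run with adjusted p-values (Benjamini-Hochberg, threshold 0.05). The day 0 and 2 W arrays were assumed to vary like the 2 arrays at 1 W, the only replicates. All 12 lens epithelium markers had a brighter probe set. *Cryaa* and *Cryab*, the alpha crystallins, were at 7430 and 9229 at day 0, while *Six3* of the same list was at 54.0. Photoreceptor markers were bright on this array too, *Sag* reaching 2765 and *Pde6g* 2617. The 11 photoreceptor markers measured summed to 15454 there, against 1386 on replicate 1, 5644 on replicate 2 and 1392 on the last array. All ratios are to this day 0 array, and the part of photoreceptor RNA in them was not tested.

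*Gbp2*, *Ifitm1* and *Ifi27l2b* were the 3 of the 9 genes over 2.0-fold at 2 W and on both arrays of 1 W, a rule met by 2.51% of the 10455 genes with a brighter probe set (its mean level reaching the 40th percentile of all). *Gbp2* encodes a guanylate-binding protein, a GTPase that attacks the vacuoles of intracellular microbes. Its intensity was 30.2 on the day 0 array, 395 and 610.3 on replicates 1 and 2 of 1 W and 305 on the array of 2 W. It was at or above the 88.1 percentile of each later array, while on the day 0 array it was dimmer than most probe sets. The log2 ratio was 4.21 ± 0.48 (SD, n = 2) at 1 W, or 18.6-fold, and 3.90 at 2 W, or 14.9-fold. Neither time passed limma after adjustment (adjusted p = 0.0828 and 0.0553). Among the 18625 probe sets, this ratio had rank 43 on replicate 1, rank 10 on replicate 2 and rank 32 at 2 W. The RNA of a whole capsule was measured, so more cells of a type and more RNA per cell cannot be told apart, here and below.

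*Ifitm1* encodes a small membrane protein that limits the entry of viruses. It had intensities of 109.8 on the day 0 array, 810 and 554 on those of 1 W and 354 on that of 2 W. The 3 arrays after ECLE again lay well above day 0. The log2 ratio was 2.80 ± 0.35 (SD, n = 2) at 1 W and 2.25 at 2 W, that is, ratios of 6.97 and 4.77 (limma adjusted p = 0.0924 and 0.0577). *Ifi27l2b*, of the ISG12 family of small hydrophobic proteins, was the dimmest of the 9 at day 0 relative to its array, at the 8.04 percentile. Its intensity was 2.57 on the day 0 array, 283.8 and 41.5 on those of 1 W and 102.5 on that of 2 W. The day 0 array was below all others, but the replicates at 1 W differed 6.60-fold. Its log2 ratio was 5.59 ± 1.93 (SD, n = 2) at 1 W and 5.88 at 2 W (adjusted p = 0.174 and 0.0912 from limma). Because day 0 was so dim, and not shown to be above background, the size of this ratio is uncertain. With intensities below the 20th percentile set to that percentile, it was 3.62 (1 W) and 3.91 (2 W) on the log2 scale (limma adjusted p = 0.259 and 0.158). At day 0, with arrays scaled by their mean, *Ifi27l2b* and *Oas1a* were the 2 of the 9 genes below the level for entering the test. Both reached that level through the later arrays.

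With arrays scaled by their median, *Gbp2* (adjusted p = 0.00198 at 1 W and 0.00491 at 2 W) and *Ifitm1* (0.00621 and 0.0103) passed limma at both times. *Ifi27l2b* passed too (adjusted p = 0.0386 and 0.0263), but as it entered the test through its bright arrays this is no support for it. The level of *Gbp2* on the day 0 array was below the 40th percentile of that array. Whether *Gbp2* too entered the test through its later arrays was not checked with median scaling, so its passes are not counted as support. Over the 9 alternatives that gave a test, the adjusted p of *Gbp2* reached 0.295 at 1 W and 0.149 at 2 W, without an intensity trend. That of *Ifitm1* reached the same values there, and that of *Ifi27l2b* reached 0.311 and 0.16 over 8 alternatives.

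**Figure D1:**
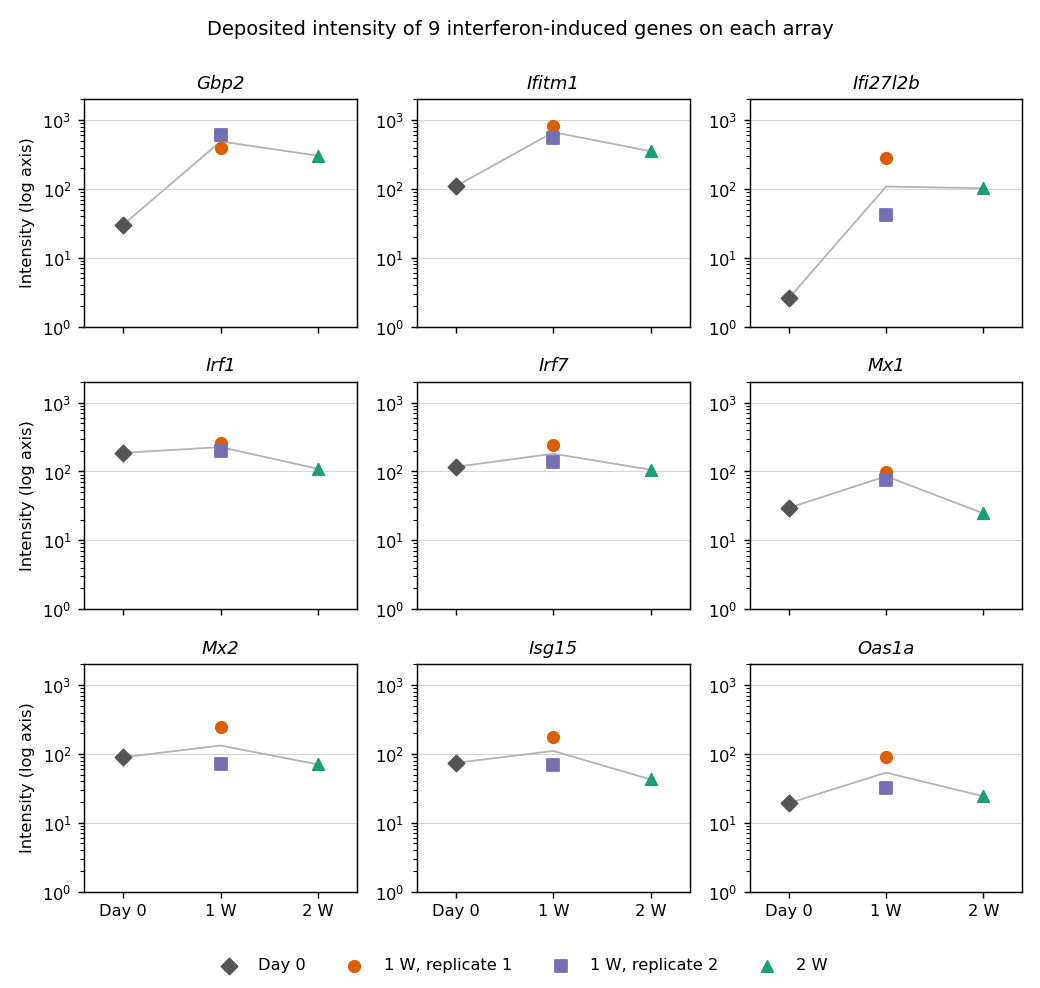
Deposited intensity (vertical, log axis) of each of the 9 genes by time after ECLE, with 1 point per array and a line through day 0, the mean log2 value at 1 W, and 2 W. *Gbp2*, *Ifitm1* and *Ifi27l2b* lie above their day 0 point on all later arrays. The values are not scaled: *Mx1* was 29.6 at day 0 and 24.6 at 2 W, but its scaled ratio at 2 W was 1.23.

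The other antiviral effectors had their highest intensities on replicate 1 of 1 W. *Mx1* and *Mx2* encode dynamin-like GTPases that trap viral nucleocapsids. *Mx1* had intensities of 29.6 on the day 0 array, 97.5 and 74.2 on those of 1 W and 24.6 on that of 2 W. Both 1 W arrays were above day 0 and 2 W, with ratios of 3.70 and 2.92, against 1.23 at 2 W. Its log2 ratio was 1.72 ± 0.24 (SD, n = 2) at 1 W (adjusted p = 0.156 from limma) and 0.30 at 2 W (adjusted p = 0.634). The brighter probe set of *Mx2* had intensities of 89.6 on the day 0 array, 242.8 and 72.3 on those of 1 W and 70.5 on that of 2 W. Only replicate 1 stood above day 0 by over 2.0-fold, and replicate 2 was at 0.939-fold, so the log2 ratio at 1 W (0.76 ± 1.20, SD, n = 2) rests on replicate 1. The limma adjusted p was 0.618 at 1 W and 0.883 at 2 W, where the log2 ratio was 0.22. The dimmer second probe set of *Mx2*, which was not tested, had intensities of 6.65 on the day 0 array, 9.20 and 7.26 on those of 1 W and 9.32 on that of 2 W, with its highest ratio at 2 W (2.08).

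*Isg15* encodes a ubiquitin-like protein that is joined to other proteins during the interferon response. It had intensities of 74.2 on the day 0 array, 178.3 and 68.4 on those of 1 W and 42.5 on that of 2 W. As with *Mx2*, replicate 1 alone was over 2.0-fold, at 2.70, and replicate 2 was at 1.07. The log2 ratio was 0.77 ± 0.94 (SD, n = 2) at 1 W and -0.24 at 2 W (adjusted p = 0.541 and 0.846 from limma). *Oas1a* encodes an enzyme that makes short adenylate chains, which activate a ribonuclease. Its intensities were 19.2 on the day 0 array, 89.9 and 31.8 on those of 1 W and 24.2 on that of 2 W. All later arrays were above day 0, at 5.25-fold and 1.93-fold at 1 W and 1.87-fold at 2 W. The log2 ratio was 1.67 ± 1.02 (SD, n = 2) at 1 W and 0.90 at 2 W (adjusted p = 0.327 and 0.503 from limma). *Oas1a* was over 2.0-fold on every later array when arrays were scaled by the median, the 75th percentile or quantiles. The OAS genes are close relatives, and probes may also bind other members of the family.

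The transcription factors varied less. *Irf1*, a transcription factor of the early interferon response, had intensities of 186 on the day 0 array, 258 and 198.5 on those of 1 W and 109.3 on that of 2 W. Its log2 ratio was 0.47 ± 0.23 (SD, n = 2) at 1 W and -0.20 at 2 W (adjusted p = 0.351 and 0.627 from limma), and no array differed from day 0 by 2.0-fold. The sign at 2 W depends on the scaling, being positive with the median, 75th percentile and quantile scalings. *Irf7*, which amplifies type I interferon production, had intensities of 116.8 on the day 0 array, 242 and 135.3 on those of 1 W and 106 on that of 2 W. Replicate 1 was at 2.32-fold, while replicate 2 and 2 W were nearer to day 0, at 1.35-fold and 1.34-fold. Its log2 ratio was 0.82 ± 0.56 (SD, n = 2) at 1 W and 0.43 at 2 W (adjusted p = 0.348 and 0.549 from limma). *Irf7* and *Gbp2* both held an ISRE core in the window shown, with 1 W ratios of 1.77 and 18.6.

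**Figure D2:**
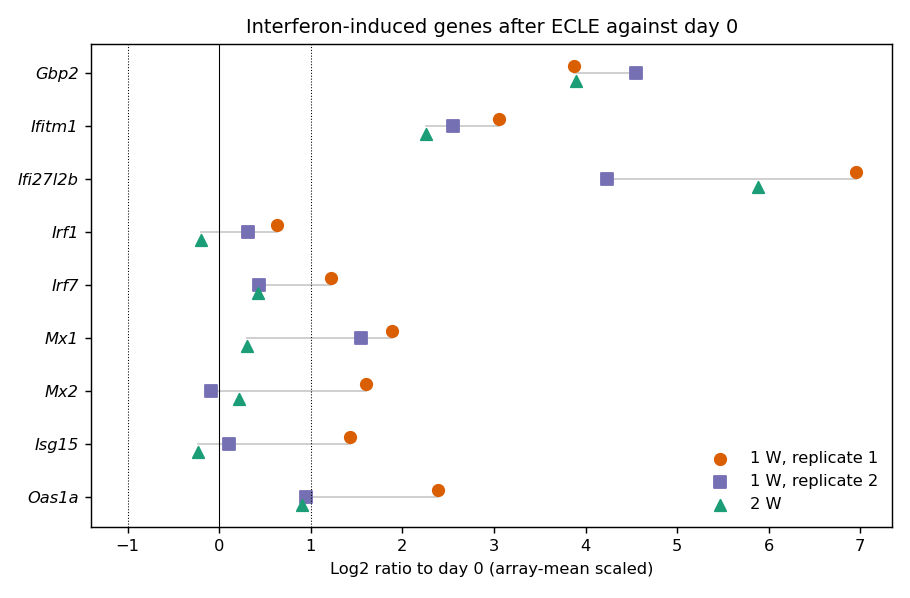
Log2 ratio to day 0 (horizontal axis, each array divided by its mean) of the 9 genes for replicate 1 of 1 W (circles), replicate 2 of 1 W (squares) and the 2 W array (triangles), with dotted lines at 2.0-fold and 0.5-fold. No point lies under 0.5-fold, and the points of *Gbp2*, *Ifitm1* and *Ifi27l2b* all lie to the right of 2.0-fold.

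At 1 W, limma called 0 of the 9 genes after adjustment (0.0483% of all probe sets tested were called higher), and 4 of the 9 were higher at an unadjusted p under 0.05, against 8.21% of probe sets. The 4 were *Gbp2*, *Ifitm1*, *Ifi27l2b* and *Mx1*. At 2 W, limma called 0 of the 9 (again 0.0483% of probe sets were called higher), and 3 were higher at an unadjusted p under 0.05, against 9.01%. These were *Gbp2*, *Ifitm1* and *Ifi27l2b*. As *Ifi27l2b* entered the test through its bright arrays, its place in both counts is no support. The same limit holds for *Ifi27l2b* and *Oas1a* in the ratio counts below. None of the 9 was lower at an unadjusted p under 0.05 at 1 W, where 9.66% of probe sets were, or at 2 W, where 21.9% were. By ratio alone, 4 of the 9 were over 2.0-fold on both arrays of 1 W (3.25% of brighter genes) and 5 by the mean at 1 W (4.95%), *Oas1a* being the fifth. At 2 W, 3 were over 2.0-fold (6.6%). Of the 9, 6 were above day 0 on every later array (26.6%), all but *Irf1*, *Mx2* and *Isg15*. This count depends on the scaling, being 8 with the median, 75th percentile and quantile scalings and 4 with the deposited values. None was under 0.5-fold on all later arrays (1.78%), on both arrays of 1 W (2.17%), by the mean at 1 W (3.71%) or at 2 W (12.3%). Over the 9 genes, the log2 ratio had a median of 1.67 at 1 W, against -0.01 for all 10455 brighter genes. The value of 1.67 is that of *Oas1a*, which was admitted to the test through the later arrays. Without replicate 1 the median of the 9 was 0.95 at 1 W. At 2 W these medians were 0.43 and -0.21, and with the deposited values that of the 9 was -0.14.

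The 2 arrays at 1 W differed in how many of these genes exceeded day 0. On replicate 1, 8 of the 9 were over 2.0-fold, all but *Irf1*, where 5.3% of brighter genes were. On replicate 2, 4 of the 9 were, where 5.29% of brighter genes were. *Irf7*, *Mx2*, *Isg15* and *Oas1a* were the 4 over 2.0-fold on replicate 1 and not on replicate 2 (2.05% of brighter genes). All 9 but *Gbp2* were higher on replicate 1 than on replicate 2, a direction that 47.1% of brighter genes had, and 4 of them by over 2.0-fold (1.79% of brighter genes). *Gbp2* was lower on replicate 1, at 0.624 of replicate 2. Of the 22 other antiviral effectors with a brighter probe set, 19 were also higher on replicate 1, with a list median of 0.55 on replicate 1 and 0.11 on replicate 2. Other cell markers differed between these replicates too. The pigment cell markers had median log2 ratios of 2.74 on replicate 1 and 0.94 on replicate 2, and all 7 measured were higher on replicate 1. The 11 measured photoreceptor markers had medians of -3.45 and -1.22, and none was higher on replicate 1. The 17 macrophage markers had medians of 2.20 and 2.04, and 15 of them were higher on replicate 1. The part of these cells in the values of the 9 genes was not tested.

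**Figure D3:**
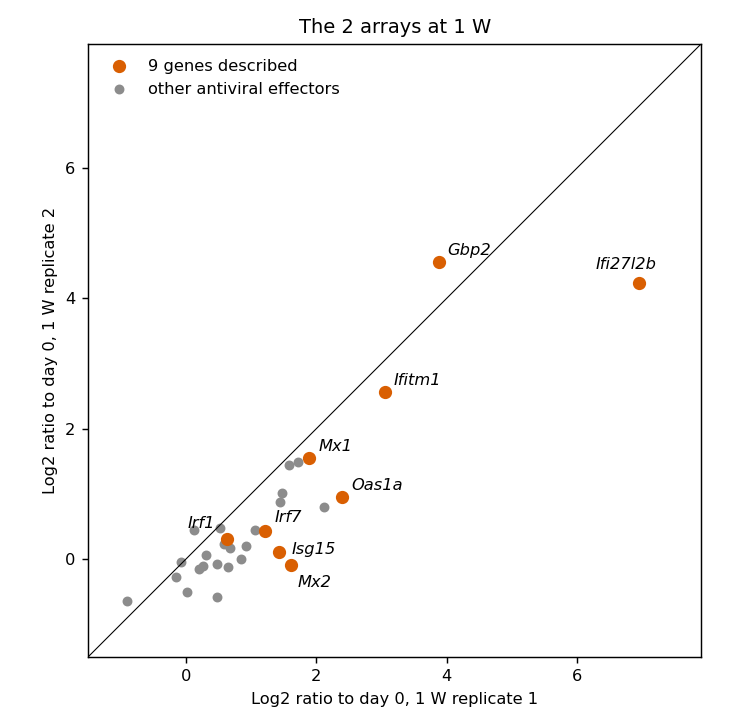
Log2 ratio to day 0 at 1 W on replicate 1 (horizontal axis) and replicate 2 (vertical axis) for the 9 genes (large named points) and 22 other antiviral effectors (small points), with the line of equal ratios. All named points but *Gbp2* lie below the line, and *Mx2* lies at 1.60 and -0.09.

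Between 2 W and 1 W the share of the 9 genes with lower values was near that of all brighter genes. *Ifitm1*, *Irf1*, *Irf7*, *Mx1*, *Isg15* and *Oas1a*, 6 of the 9, were lower at 2 W than on both arrays at 1 W, as were 58.1% of brighter genes. The log2 difference of 2 W from 1 W was -1.42 for *Mx1* (adjusted p = 0.159 from limma), -0.77 for *Oas1a* (adjusted p = 0.563), -0.67 for *Irf1* (adjusted p = 0.206) and -0.31 for *Gbp2* (adjusted p = 0.612). *Ifi27l2b* alone had a difference above 0, at 0.29 (adjusted p = 0.904). In this comparison limma called 0 of the 18625 probe sets (0%), and at an unadjusted p under 0.05 it had 2 of the 9 lower, *Irf1* and *Mx1*, against 16.4% of probe sets, and 0 higher, against 5.5%. With the values as deposited, *Mx1* (adjusted p = 0.0344) and *Irf1* (adjusted p = 0.0396) passed limma in this comparison. Over all alternatives the adjusted p ran up to 0.267 for *Mx1* and 0.396 for *Irf1*. Of the 22 other antiviral effectors, 20 were lower at 2 W than on both arrays at 1 W.

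The closest relatives of the 3 genes that stayed above 2.0-fold did not share 1 pattern. In the family of guanylate-binding proteins, *Gbp7* had intensities of 6.49 on the day 0 array, 108.6 and 62.7 on those of 1 W and 75.6 on that of 2 W. It was over 2.0-fold on every later array, with ratios of 14.5 (1 W) and 17.3 (2 W) that missed the threshold in limma (adjusted p = 0.105 and 0.0577). Its day 0 value lay at the 14.7 percentile, not shown to be above background, and it too entered the test through the later arrays. With the floor at the 20th percentile its log2 ratios were 3.22 (1 W) and 3.47 (2 W). *Gbp4*, too dim to be tested, had intensities of 5.47 on the day 0 array, 37.6 and 45.3 on those of 1 W and 22.8 on that of 2 W. The immunity-related GTPases were divided. *Irgm* had a ratio of 2.93 at 1 W and of 2.14 at 2 W (limma adjusted p = 0.153 and 0.131). *Igtp* had ratios of 1.00 and 0.480 at these times, and *Irgm2* of 1.07 and 0.457.

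Among the interferon-induced transmembrane proteins, *Ifitm3* had intensities of 879 on the day 0 array, 2571 and 2120 on those of 1 W and 1168 on that of 2 W. Like *Ifitm1* it was above day 0 on every later array, with ratios of 3.03 (1 W) and 1.97 (2 W) and limma adjusted p = 0.0947 and 0.0687. *Ifitm2*, named after its values were seen, had 1169 on the day 0 array, 941 and 828 on those of 1 W and 404 on that of 2 W, with ratios of 0.863 at 1 W and 0.511 at 2 W (adjusted p = 0.465 and 0.0659). *Ifi27*, a relative of *Ifi27l2b*, had intensities of 1780 on the day 0 array, 2202 and 1455 on those of 1 W and 679 on that of 2 W, and its log2 ratios, 0.20 (1 W) and -0.82 (2 W), were far below those of *Ifi27l2b*. None of these relatives passed limma. Probe sets of close relatives can share targets, so values of single family members are uncertain.

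The rules of over 2.0-fold and under 0.5-fold on each later array were met by 2.51% and 1.78% of all brighter genes, so a count of 0 in a short list of the interferon pathway does not set it apart. Of the brighter pathway genes, 2 of 4 GTPases (*Gbp7* and *Irgm*) and 2 of 2 chemokines were over 2.0-fold on each later array. *Gbp7* and the chemokine *Ccl7*, at 6.49 and 11.5 on the day 0 array, reached the test through the later arrays. Their place in these counts is no support. Upstream, *Ifnar1* and *Ifnar2*, the chains of the type I receptor, had at 1 W log2 ratios of -0.69 and -0.51, and at 2 W of -1.16 and -1.08. *Ifngr1* and *Ifngr2*, the chains of the interferon gamma receptor, had 0.28 and 0.43 at the first of these times and -0.57 and 0.40 at the second. Of the 5 genes of interferons and receptors with a brighter probe set, 0 were over 2.0-fold or under 0.5-fold on each later array. *Ifnb1* and *Ifng*, which encode interferon beta and interferon gamma, had intensities of at most 12.7 and 3.39 on any array and were too dim to be tested.

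Of 13 brighter genes of the JAK, STAT, IRF and SOCS list, 0 met either fold rule on each later array. *Jak1*, a kinase of both receptors, had a log2 ratio of 0.26 at 1 W and of -0.12 at 2 W, and *Ptpn2*, a phosphatase that opposes JAK kinases, had 0.35 and -0.38. *Irf9*, the DNA-binding part of the complex that reads the ISRE, had log2 ratios of 1.04 and 0.18 on replicates 1 and 2 and -0.32 at 2 W, and *Irf8*, a factor of myeloid cells, 1.28, 1.11 and 0.85. Of 22 other antiviral effectors, 0 met either rule, and the list's median log2 ratio at 2 W was -0.34. Over the 32 effectors with any probe set, the median at 2 W was -0.21, and it turned positive with the median, 75th percentile and quantile scalings (0.06, 0.10 and 0.02). Of 7 brighter sensors of nucleic acids, which start interferon production, 0 met either rule, and their median log2 ratios were 0.51 and 0.26 on replicates 1 and 2. Of 11 brighter genes of MHC class I processing, 0 met either rule, and *B2m*, the light chain of MHC class I, had ratios of 1.71 at 1 W and 1.31 at 2 W. *Ccl2*, which attracts monocytes, and *Ccl7* were the 2 brighter chemokines of 6 measured, and both were over 2.0-fold on each later array. *Cxcl9*, *Cxcl10*, *Cxcl11* and *Ccl5* were too dim to be tested and did not meet this rule. On replicate 1, replicate 2 and at 2 W, *Cxcl10* had ratios of 1.57, 1.11 and 0.70, and *Cxcl11* of 0.77, 0.77 and 0.139. Those of *Cxcl9* were 4.14, 1.28 and 2.09, and those of *Ccl5* 1.86, 1.16 and 2.92. Unlike most of the 9 genes, *Ccl2* was higher on replicate 2, with intensities of 62.2 on the day 0 array, 227 and 713 on those of 1 W and 196 on that of 2 W.

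limma called 0 genes of the pathway lists at either time. At an unadjusted p under 0.05, 4 of the 22 antiviral effectors were higher and 0 lower at 1 W, where 8.21% and 9.66% of all probe sets were. At 2 W, 1 was higher and 5 lower, where 9.01% and 21.9% of all probe sets were, so the share that was lower was close to that of all probe sets. Macrophage markers stood above day 0 beside *Gbp2*, *Ifitm1* and *Ifi27l2b*. All 3 genes and 13 of 15 brighter macrophage markers were over 2.0-fold on each later array, against 2.51% of brighter genes. *Cd53*, at 16.4 on the day 0 array, reached the test through the later arrays. The summed deposited intensity of the 17 macrophage markers measured was 767 on the day 0 array, 4517 and 3447 on those of 1 W and 1920 on that of 2 W. *Lyz2*, *C1qa* and *Cd53*, all of leukocytes, had log2 ratios of 3.06, 2.89 and 2.83 at 1 W. Of 13 T and NK cell markers, 12 were too dim to be tested, and the summed intensity was 172 on the day 0 array, 209 and 180 on those of 1 W and 178 on that of 2 W. Among brighter markers, those over 2.0-fold on each later array (2.51% of brighter genes) were counted by list. They numbered 0 of 1 T and NK cell marker, 0 of 5 endothelial, 2 of 8 fibroblast and 3 of 7 pigment cell markers. For photoreceptor and erythroid markers the counts were 0 of 10 and 0 of 1. No B cell or neutrophil marker was bright enough to be tested. Those under 0.5-fold on each later array (1.78% of brighter genes) numbered 0, 0, 1, 0, 7 and 1 in these 6 lists. The part of leukocytes or other cells in the interferon-induced genes was not tested.

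**Figure D4:**
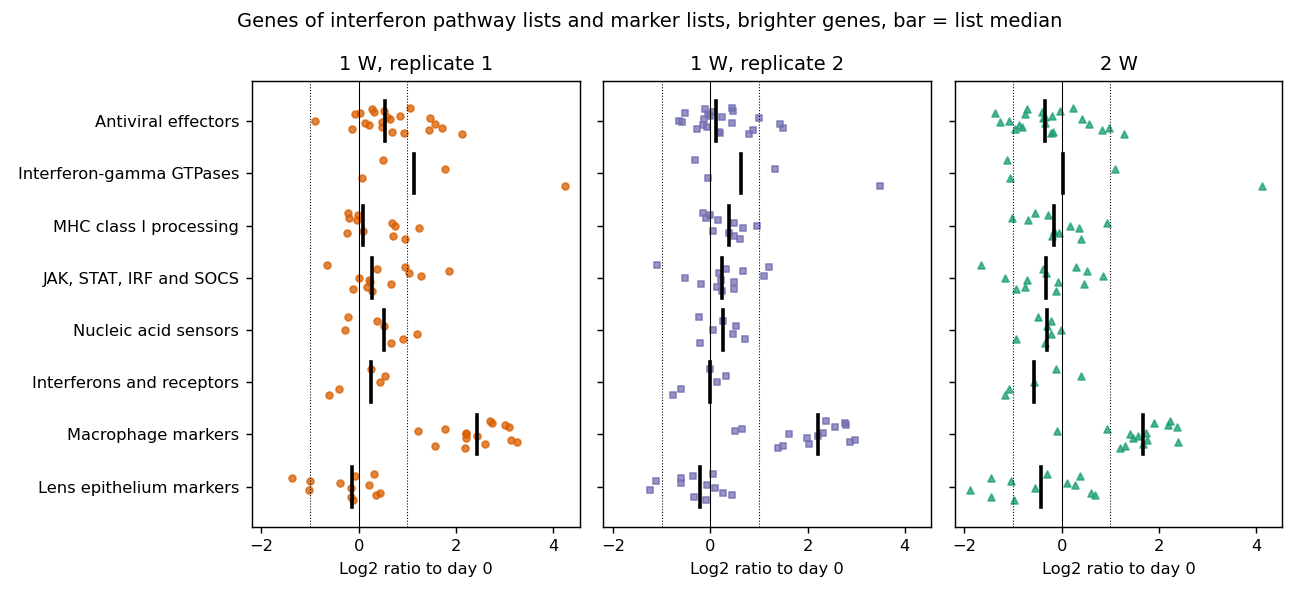
Horizontal positions give the log2 ratio to day 0 of each brighter gene of 6 interferon pathway lists, the macrophage markers and the lens epithelium markers on replicate 1 at 1 W, replicate 2 at 1 W and at 2 W, with a bar at each list's median and dotted lines at 2.0-fold and 0.5-fold. The antiviral effectors have medians of 0.55, 0.11 and -0.34 on the 3 arrays, and the macrophage markers lie mostly above 2.0-fold.

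The genes whose 3 log2 ratios to day 0 lay closest to each member's, by the root mean square difference over the 3 later arrays, were of different kinds. All share the day 0 array, so the likeness is a description. *Ifitm1* was closest to *Fxyd5*, a regulator of the sodium pump (0.06), and to *Cd53*, a tetraspanin of leukocytes (0.08). *Gbp2* was closest to *Fn1*, which encodes fibronectin (0.44), and to *Cdkn2b*, an inhibitor of the cell cycle (0.48). *Ifi27l2b* was closest to *Dcn*, the proteoglycan decorin (0.51), with *Grem1*, an antagonist of BMP signals, next (0.86). *Irf7* was closest to *Pltp*, which transfers phospholipids (0.08), and to *Lgals3bp*, itself induced by interferon (0.14). *Isg15* was closest to *Nabp1* (0.15) and *Irf9* (0.24), and *Mx2* to *Nabp1* (0.26) and *Rbpms* (0.28). *Mx1* was closest to *Eeig2* (0.18) and *Ccnd1*, a cyclin of the cell cycle (0.22), *Oas1a* to *Fos*, an immediate-early gene (0.19), and *Tacr3*, a neurokinin receptor (0.23), and *Irf1* to *Ptpn1*, a tyrosine phosphatase (0.03), and *Dynlt2b*, a dynein light chain (0.06).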

How the data were processed

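Capsule RNA was measured on 4 Affymetrix rat genome arrays. The authors labeled and hybridized it and used Command Console and Expression Console (the submitters' processing notes name the second program). They deposited 1 linear intensity per probe set. The sources used here give neither how probes were summarized nor whether the methods' division by the array average had been applied.

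Without the 57 control probe sets, 31042 remained. Values were divided by the mean of their array and turned to log2. Brighter probe sets, the 18625 whose mean level reached the 40th percentile, entered a limma fit (version 3.58.1, R 4.3.3) of the 3 groups by lmFit and trended eBayes, two-sided, with 1 residual and 3.12 prior degrees of freedom. The p-values rest on the spread between the 2 arrays at 1 W, drawn toward an intensity trend over all probe sets tested. The spread at day 0 and at 2 W was not measured. The test was tried on simulated data first. A gene is represented by its brightest probe set. Fold rules of over 2.0 and under 0.5 follow the methods. Symbols are the platform's, of which 20758 matched RefSeq (GRCr8). Tables and plots used Python 3.11.15, pandas 2.3.3, numpy 2.4.6 and matplotlib 3.10.9.

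Genes named are the 9 members, list genes past a fold rule on each later array (up to 4 a direction) or among a list's 2 brightest, and the 2 genes nearest to each member. *Ifnar1*, *Ifnar2*, *Ifngr2*, *Ifng*, *Irf8*, *Ifitm2*, *Cxcl9*, *Cxcl10*, *Cxcl11*, *Ccl5*, *Six3*, *Ptprc* and *Laptm5* were named after their values were seen. Members and lists were chosen with earlier results of these data known. Alternatives were 4 other scalings, a floor at the 20th percentile, no filter or one at the 60th percentile, limma without a trend or with a robust prior, any probe set of a gene, and each 1 W replicate left out. The number of arrays limits the precision, and no detection calls were used.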

Additional observations from a re-analysis of the deposited data

Results flagged for a closer look

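*Irf1* and *Isg15* stood on opposite sides of day 0 at the 2 times, with both arrays at 1 W above it and the array at 2 W below it. The log2 ratios of *Irf1* were -0.20 at 2 W, against 0.64 and 0.31 at 1 W, and its difference between the times did not pass limma (adjusted p = 0.206). Those of *Isg15* were -0.24 at 2 W, against 1.43 and 0.10 at 1 W (adjusted p = 0.391). Both 2 W values turned positive under 3 other scalings, given with the processing alternatives. No group had 4 or more arrays, so no array was compared with its group.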

How the results depend on the processing

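The 3 genes over 2.0-fold on each later array stayed 3 or became 4, with *Oas1a*, under every alternative run. Scaling by the array median called 406 probe sets at 1 W (260 higher, 146 lower), 1631 at 2 W (948 and 683) and 209 between 2 W and 1 W (158 and 51), against 9, 9 and 0 in the reported fit, where all 18 calls were higher. The deposited values gave 250 (87 and 163), 7974 (344 and 7630) and 4421 (193 and 4228), where the median log2 ratio of all probe sets tested was itself -0.27 (1 W) and -0.83 (2 W). At 2 W, the 75th percentile scaling called 399 (276 and 123), quantile normalization 0, the floor 4, the 60th percentile filter 5. Without an intensity trend limma called 0 at both times. The cause of these shifts was not tested. The members' median at 2 W was -0.14 with the deposited values, and at 1 W it ran from 0.95 without replicate 1 to 1.89 without replicate 2. At 2 W, *Irf1* turned to 0.073, 0.11 and 0.12 and *Isg15* to 0.038, 0.080 and 0.061 with median, 75th percentile and quantile scaling, and *Irf7* to -0.14, *Mx1* to -0.27 and *Mx2* to -0.35 with the deposited values. *Mx2* at 1 W was -0.091 without replicate 1 and 1.60 without replicate 2. Of 90 values of the 9 genes tested under the 4 other scalings and the floor, 68 kept direction and call. Another 13, all of *Gbp2*, *Ifitm1* and *Ifi27l2b*, passed the test anew. The filter and limma alternatives are not in this count. Of 18 values without a replicate, which had no test, 17 kept direction. The counts of genes above day 0 on each array under other scalings were added after the data were seen. No paired analysis was possible because only the 1 W group has replicate numbers. How far dim probe sets lie above background is not known here.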

Other observations

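Several genes of the pathway were over 2.0-fold on each array after ECLE but too dim to be tested, and are named because they met that rule. With dim genes included, it was met by 1 of 32 other antiviral effectors and 1 of 8 interferons and receptors. In the list of JAK, STAT, IRF and SOCS genes 1 of 15 met it, and 1 of 8 nucleic acid sensors did. The share of all dim genes that met it was not counted, so these genes do not set their lists apart. *Tlr7*, an endosomal sensor of single-stranded RNA, had intensities of 0.960 on the day 0 array, 37.1 and 27.1 on those of 1 W and 16.9 on that of 2 W. *Socs1*, a brake on JAK signals, had 2.32 on the day 0 array, 7.23 and 10.7 on those of 1 W and 9.54 on that of 2 W. *Epsti1*, induced by interferon, had 12.4 on the day 0 array, 38.5 and 26.5 on those of 1 W and 24.7 on that of 2 W. *Ifnb1* had 1.13 on the day 0 array, 12.7 and 2.88 on those of 1 W and 9.20 on that of 2 W. In the other direction *Ifnlr1*, a receptor chain for interferon lambda, had 47.7 on the day 0 array, 17.8 and 2.48 on those of 1 W and 12.1 on that of 2 W. Values this dim carry the least certain ratios.

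ISRE cores were in 22 of the 34 promoters found for the other antiviral effectors, in 7 of 10 for the interferon gamma GTPases and in 7 of 9 for MHC class I processing, against 3.92% of all promoters. These lists include genes that were above day 0 after ECLE and genes that were not, such as *Gbp7* and *Igtp*.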
